A study of Mus musculus with 6 samples.

Results

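Adhesion G protein-coupled receptors (aGPCRs) are the family to which the gene deleted in this study belongs, and 10 of them were followed here across the intervertebral disc (IVD) libraries. They were chosen by symbol, as the rows named Gpr126, Gpr56, Gpr124, Gpr125, Gpr133, Gpr64, Gpr98, Lphn1, Lphn2 and Cd97 in the count files, which list 43472 symbols in all, and each of the 10 had a row. The files use older symbols, and the current names are in the same order Adgrg6, Adgrg1, Adgra2, Adgra3, Adgrd1, Adgrg2, Adgrv1, Adgrl1, Adgrl2 and Adgre5. Poly(A) RNA-seq was run on discs of the thoracic and lumbar spine of C57B6/J mice at postnatal day 20, in 3 libraries labelled Col2Cre;Adgrg6 f/f and 3 labelled as control, each from discs of 2 to 3 mice pooled together. In the mutant mice both copies of Adgrg6 are floxed and Cre is driven by a Col2 promoter, in cells that make type II collagen. The control mice are wild type by their genotype label and Col2Cre control by their title. The study's results and figure legend call them littermates without Cre, so that these sources differ on whether the controls carry the transgene. The sex of the mice is not given in the sources used here, and the pools are taken as separate samples.

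An aGPCR carries a long extracellular region, a GPCR-autoproteolysis site (GPS) close to the first membrane-spanning helix, and a bundle of helices in the membrane that couples to G proteins. At the GPS the receptor can cut itself between a leucine and a threonine or serine, which leaves the outer fragment bound to the rest, and the short stretch behind the cut can act as a tethered agonist. ADGRG6 is known for raising cAMP in Schwann cells at the onset of myelination and for its part in cartilage and in the straightness of the spine. The other genes of the family are known from brain, vessels, muscle, immune cells and the inner ear.

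The coding bases around the GPS were read from GENCODE M21 transcripts on GRCm38, since this site is characteristic of the family and shows how the genes differ. A search for the pattern of cysteine, any residue, cysteine, 1 or 2 residues, histidine, then leucine, phenylalanine or methionine, then threonine or serine found 1 match in 8 of the 10 genes. No match was found in Gpr124 or Gpr125. Each line gives 45 coding bases from the first cysteine codon, 5′ to 3′, with the codons of the histidine, the residue before the cut and the residue after it in capitals.

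Gpr126: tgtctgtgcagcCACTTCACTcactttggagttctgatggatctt
Gpr56: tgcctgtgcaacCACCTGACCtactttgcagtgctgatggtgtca
Gpr133: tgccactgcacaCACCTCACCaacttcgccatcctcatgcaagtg
Gpr64: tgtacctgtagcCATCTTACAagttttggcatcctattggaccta
Gpr98: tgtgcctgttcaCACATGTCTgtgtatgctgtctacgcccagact
Lphn1: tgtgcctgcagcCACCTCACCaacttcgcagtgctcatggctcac
Lphn2: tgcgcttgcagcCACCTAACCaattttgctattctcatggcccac
Cd97: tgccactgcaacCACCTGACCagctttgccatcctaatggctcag

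In Gpr126 the capitals encode His-Phe-Thr and the threonine after the cut is codon 839 of 1193, in exon 18 of 25. The 45 bases of Gpr126 lie within chr10:14428212-14431644 on the minus strand, and an intron of 3388 bases stands inside them. An intron of 702 bases stands inside those of Gpr56 (chr8:95007630-95008376, plus strand) and one of 802 bases inside those of Gpr64 (chrX:160483299-160484145, plus strand), whose current names place them in the same G group as Gpr126. The other 5 stretches lie in 1 exon each, at chr5:129171873-129171917 for Gpr133, chr13:81382278-81382322 for Gpr98, chr8:83933994-83934038 for Lphn1, chr3:148837576-148837620 for Lphn2 and chr8:83725877-83725921 for Cd97. Lphn1 and Lphn2 shared 80.0% of these bases, the highest of all pairs, and Gpr98 and Cd97 shared 37.8%, the lowest. Gpr126 shared 71.1% with Gpr56 and with Lphn1 and 40.0% with Gpr98.

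Counts on genes per library ran from 9061491 to 12017008. Cartilage markers were high in every library, with 12 of 12 genes counted and a summed level of 93016 to 155018 CPM (counts scaled to the size of the library) in the libraries labelled control and 125097 to 156990 in those labelled mutant, and nucleus pulposus markers summed to 2423 to 4977 and 3163 to 5842 CPM. Of the 12 cartilage genes 10 had a log2 fold change below 0, with a median of -0.30, and 3 were at an unadjusted p under 0.05, Col9a2, Col9a3 and Matn3, all lower. Of the nucleus pulposus markers, Noto, an early notochord gene, was at or near 0. Control replicate 1 stood apart in skeletal muscle markers, at 4074 CPM against 70.6 to 156 CPM in the other 5 libraries. Control replicates 2 and 3 had a count on 22971 and 23133 symbols, against 20421 to 21244 in the remaining 4 libraries. In the edgeR quasi-likelihood test 1 of 16152 genes passed an adjusted p of 0.05, and that gene is not an aGPCR, while 1164 passed at an unadjusted p of 0.05.

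Gpr126, the targeted gene, was not lower in the libraries labelled mutant. It lies at chr10:14402583-14545659 on the minus strand and was measured at 124, 108 and 94.3 CPM in control replicates 1, 2 and 3 and at 138, 124 and 106 CPM in mutant replicates 1, 2 and 3. The groups overlapped, and the highest library was one labelled mutant. The means were 122 ± 16.1 CPM in the libraries labelled mutant and 109 ± 14.7 CPM in those labelled control (SD, n = 3 each), a log2 fold change of 0.17 (standard error 0.18, edgeR adjusted p = 0.849). Its 95% interval ran from -0.24 to 0.58, which is 0.849-fold to 1.498-fold, and without control replicate 1 the log2 fold change was 0.30.

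These counts cover the whole gene. The exons between the loxP sites are not given in the sources used here, so that reads from the deleted part were not counted apart, and the level of Gpr126 neither checks the labels nor measures the loss of the receptor. For that reason each group is named here by its label. In older mice with another Cre, ATC, the study reported reduced Adgrg6 by qPCR and by in situ hybridization. For Col2Cre it reported recombination of the entire disc with a LacZ reporter. The study lists a primer pair for Adgrg6, shown because it marks a defined part of the transcript.

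forward: ccaaagttggcaatgaaggt
reverse: gctggatcaggtaggaacca

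Both primers matched 2 of the 4 annotated transcripts, in exons 4 and 5 of 25, and enclose 519 bases of transcript within chr10:14458131-14467633. That product is 12% of the 4326 bases of the transcript with the longest coding sequence. Whether reads fall in it cannot be read from counts per gene.

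Levels of different genes were compared as CPM per kilobase of exon, over the union of annotated exons, as means of all 6 libraries. Lphn1, a latrophilin that binds teneurins and FLRT proteins, stood first at 17.8 CPM per kb (range 12 to 22.9). Gpr125 followed at 10.1 (7.08 to 11.6), Gpr126 at 9.45 (7.71 to 11.3), Gpr64 at 8.75 (7.40 to 11.5) and Gpr133 at 6.78 (4.0 to 9.33). Cd97 was at 5.96 (4.02 to 7.43), Gpr124 at 4.33 (3.43 to 5.89), Gpr56 at 2.71 (1.41 to 4.32), Lphn2 at 0.751 (0.578 to 1.0) and Gpr98 at 0.282 (0.0823 to 0.578). The ranges of neighbours in this order were apart at 2 places, between Lphn1 and Gpr125 and between Gpr56 and Lphn2, and at every other place they overlapped. Within libraries, Cd97 was above Gpr124 and Gpr124 above Gpr56 in 6 of 6, Lphn2 above Gpr98 and Gpr64 above Gpr133 in 5 of 6, Gpr125 above Gpr126 and Gpr126 above Gpr64 in 4 of 6, and Gpr133 above Cd97 in 2 of 6. By the mean of the libraries of each label, the order was the same under either label. It depends on the length used, because per kilobase of the transcript with the longest coding sequence Gpr126 and Lphn1 were level at 26.7 CPM per kb, ahead of Gpr125 at 18.3.

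**Figure D1:**
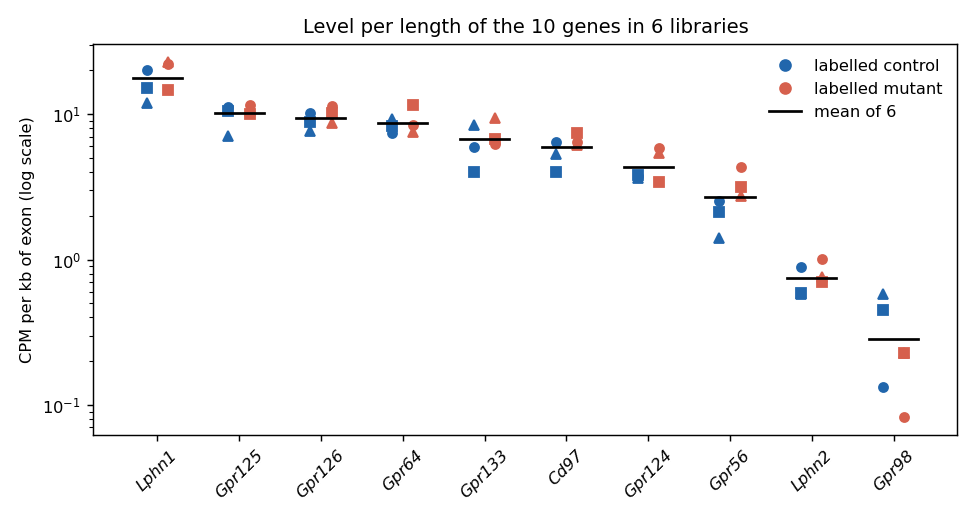
Level of each gene in CPM per kilobase of exon on a log scale, 3 libraries labelled control in blue, 3 labelled mutant in red, and the mean of 6 as a bar, with circles, squares and triangles for replicates 1, 2 and 3. Lphn1 lies highest at 17.8, Gpr126 is the third at 9.45, and Lphn2 and Gpr98 lie below all the others.

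As a background, 1109 olfactory receptor genes, which disc cells should lack, together gave 0.0022 to 0.0088 CPM per kb, highest in control replicate 3. Gpr126 lay 876 to 5127 times above this, and Gpr98, the lowest of the 10, lay 34.5 to 81.5 times above it. For Gpr98 the ratio was 34.5, 81.5 and 65.7 in control replicates 1 to 3. In mutant replicates 1 to 3 it was 37.4, 61.1 and 67.3, so the labels overlapped in it. Whether Gpr98 moves with this background was not tested. All 10 genes passed the filter on low counts, and the fewest counts were 455 over the 6 libraries for Gpr98.

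Between the labels, Gpr56 had the highest fold change of the 10 genes. Gpr56, which binds collagen III and transglutaminase 2 and is known for cortical development and myelination, lies at chr8:94974751-95014217 on the plus strand. It was at 13.6, 11.5 and 7.66 CPM in control replicates 1, 2 and 3 and at 23.4, 17.0 and 14.9 CPM in mutant replicates 1, 2 and 3. Each library labelled mutant was above each library labelled control. It was the only one of the 10 with no overlap, where 11.4% of all genes tested had none (5.45% with the libraries labelled mutant above), and the only one at an unadjusted p under 0.05, where 7.21% of all genes tested were, and 1 gene in 10 is near both shares. The means were 18.4 ± 4.47 and 10.9 ± 3.01 CPM (SD, n = 3 each), a log2 fold change of 0.76 (standard error 0.27, edgeR unadjusted p = 0.0197, adjusted p = 0.676) or 1.69-fold, with a 95% interval of 1.11-fold to 2.58-fold. It did not pass the adjusted test, and at the unadjusted one it was lost without control replicate 3 (0.56, unadjusted p = 0.0641) and without mutant replicate 1 (0.58, unadjusted p = 0.0795), while without control replicate 1, the library with muscle markers, it was 0.97 (unadjusted p = 0.00873). Schwann cell and glial markers, which could come with nerve on the discs, summed to 504, 1925 and 867 CPM in control replicates 1 to 3 and to 3759, 2668 and 1182 CPM in mutant replicates 1 to 3, with 9 of 9 genes counted, and 1 of the 9 at an unadjusted p under 0.05, with Ncmap lower. Their part in the result was not tested. In bulk tissue a larger number of cells of a type and more RNA per cell cannot be told apart.

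Gpr98 had the lowest fold change of the 10 and the only negative one. It is a very large receptor of hair cells and photoreceptors that forms a complex with whirlin and PDZD7, and its locus of 538 kb lies at chr13:81095068-81633154 on the minus strand. It was at 3.32, 11.1 and 14.4 CPM in control replicates 1, 2 and 3, from 31, 100 and 184 counts, and at 2.05, 5.63 and 5.63 CPM in mutant replicates 1, 2 and 3, from 18, 69 and 53 counts. Control replicates 2 and 3 were the high ones, and control replicate 1 lay inside the range of the libraries labelled mutant. The log2 fold change was -1.11 (standard error 0.54, 95% interval -2.31 to 0.10, edgeR unadjusted p = 0.0677, adjusted p = 0.704). Without control replicate 1 it was -1.49 (unadjusted p = 0.00477), and without control replicate 3 it was -0.68 (unadjusted p = 0.283). The same 2 control libraries had the most symbols with a count.

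**Figure D2:**
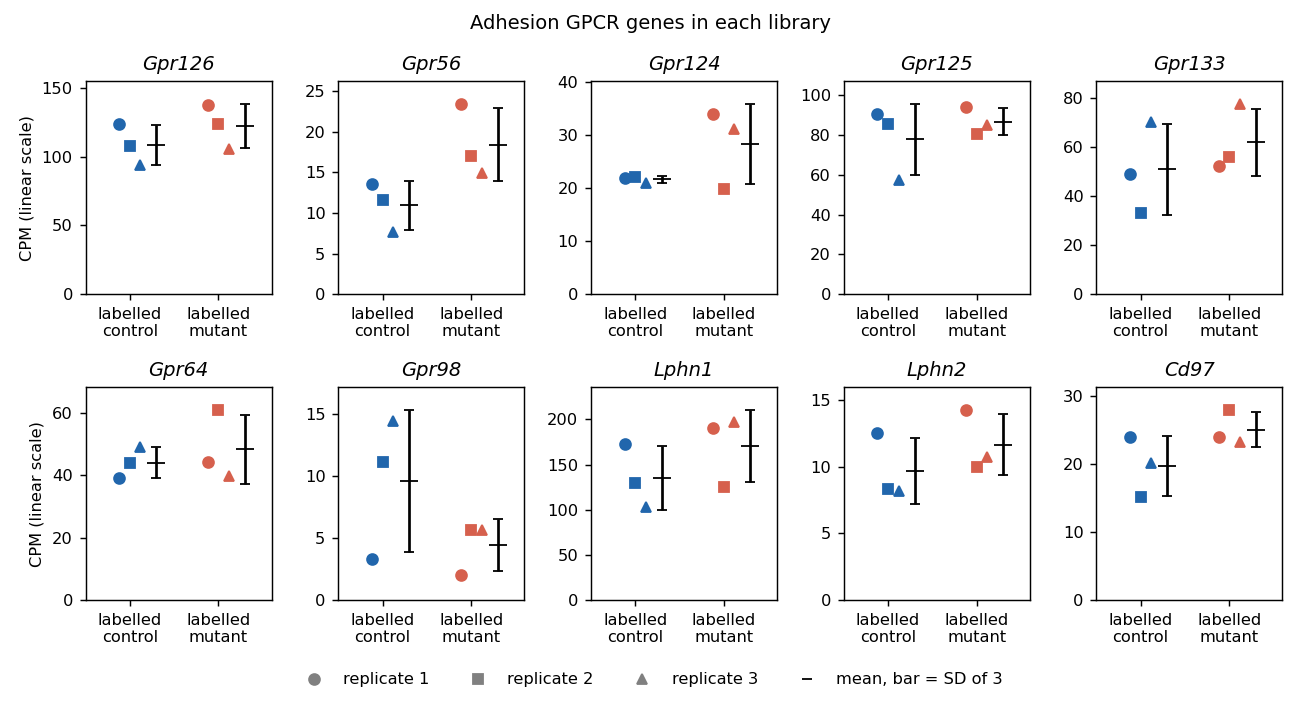
CPM of the 10 genes in each library on linear axes that start at 0, libraries labelled control in blue and labelled mutant in red, with the mean and SD of 3 beside the points. In Gpr56 every library labelled mutant, from 14.9 to 23.4, lies above those labelled control, from 7.66 to 13.6, and in the other 9 panels the groups overlap.

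The remaining genes overlapped between labels and did not pass at an unadjusted p of 0.05 with all 6 libraries. The latrophilins, which span synapses in neurons by binding teneurins, come first. Lphn1 (chr8:83900105-83941954, plus strand) was at 173, 130 and 103 CPM in control replicates 1 to 3 and at 190, 125 and 197 CPM in mutant replicates 1 to 3, with mutant replicate 2 below control replicates 1 and 2, and a log2 fold change of 0.34 (95% interval -0.21 to 0.88). Lphn2 (chr3:148815583-148990555, minus strand) was at 12.5, 8.33 and 8.21 CPM and at 14.2, 9.96 and 10.7 CPM in the same order, with a log2 fold change of 0.26 (-0.35 to 0.87). In both genes replicate 1 was the highest library labelled control. Without that library the log2 fold change was 0.57 for Lphn1 (unadjusted p = 0.0400, adjusted p = 0.317) and 0.51 for Lphn2 (unadjusted p = 0.114), and without control replicate 3 it was 0.18 and 0.16.

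Gpr124 (chr8:27085583-27123436, plus strand) is a co-receptor with RECK for WNT7 ligands in brain vessels, and Gpr125 (chr5:49959956-50059006, minus strand) is its close relative. Gpr124 was at 21.8, 22.1 and 20.95 CPM in control replicates 1 to 3 and at 34.0, 19.8 and 31.2 CPM in mutant replicates 1 to 3, a log2 fold change of 0.39 (-0.10 to 0.87). The SD of the libraries labelled control was 0.599 CPM, and mutant replicate 2 alone lay below them. Without it the log2 fold change was 0.61 (unadjusted p = 0.00789, adjusted p = 0.491). Gpr125 was at 90.6, 85.4 and 57.5 CPM and at 94.0, 80.6 and 85.1 CPM, a log2 fold change of 0.15 (-0.29 to 0.60), with control replicate 3 the low library. Without that library its log2 fold change was -0.02, so its direction rests on it. Endothelial markers summed to 167 to 312 CPM in the libraries labelled control and 252 to 289 CPM in those labelled mutant, with 7 of 8 genes above 0, a median log2 fold change of 0.30 and none at an unadjusted p under 0.05. Their part in Gpr124 was not tested.

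Gpr133 (chr5:129096750-129204599, plus strand), a receptor that raises cAMP and that PLXDC2 can activate, was at 49.2, 33.3 and 70.2 CPM in control replicates 1 to 3 and at 52.1, 56.1 and 77.7 CPM in mutant replicates 1 to 3. Replicate 3 was the highest under either label, and the log2 fold change was 0.28 (-0.31 to 0.87). Leaving out control replicate 2 gave 0.04, leaving out mutant replicate 3 gave 0.09, and leaving out control replicate 3 gave 0.60 (unadjusted p = 0.0434, adjusted p = 0.999). Gpr64 (chrX:160390690-160498070, plus strand), known from the efferent ducts of the testis, was at 39.1, 44.0 and 49.0 CPM and at 44.3, 60.9 and 39.8 CPM, a log2 fold change of 0.14 (-0.30 to 0.57). Only mutant replicate 2 stood above the libraries labelled control, and without it the log2 fold change was -0.05. Cd97 (chr8:83723251-83741326, minus strand), a receptor of leukocytes and other cells that binds CD55, was at 24.0, 15.1 and 20.1 CPM and at 24.0, 27.9 and 23.2 CPM, a log2 fold change of 0.34 (-0.12 to 0.81). Control replicate 1 lay among the libraries labelled mutant, and without it the log2 fold change was 0.53 (unadjusted p = 0.0394, adjusted p = 0.314), while leaving out control replicate 2 gave 0.18 (unadjusted p = 0.412). Macrophage markers summed to 66.5 to 94.7 CPM under the control label and 78.6 to 158 CPM under the mutant label, and neutrophil markers to 12.9 to 49.1 and 29.5 to 126 CPM, with all genes of both lists counted. Of the macrophage genes 6 of 8 had a log2 fold change above 0 and 1, Cd68, was higher at an unadjusted p under 0.05, and of the neutrophil genes 7 of 7 were above 0, with a median of 1.02, and 2, Mpo and Prtn3, were higher at that p. Their part in the level of Cd97 was not tested.

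Of the 10 genes, 9 had a log2 fold change above 0, with a median of 0.27, where 48.4% of all genes tested were above 0, with a median of -0.01. The fold changes were small against their intervals, and the interval lay above 0 in Gpr56 alone. None of the 10 passed at an adjusted p of 0.05 with edgeR, DESeq2 or limma-voom, where 0.00619% of all genes tested did with edgeR. The count above 0 was 8 of 10 without control replicate 3 and 8 of 10 without mutant replicate 2. Another scaling of the libraries moved the median of all genes by less than 0.1 on the log2 scale.

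**Figure D3:**
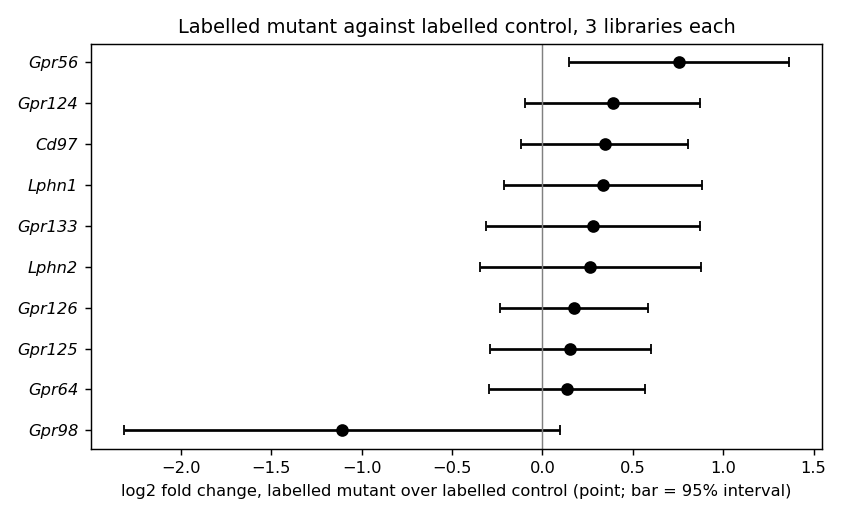
Log2 fold change of the 10 genes, libraries labelled mutant over those labelled control, as points with 95% intervals from the edgeR fit, in order of size. Gpr56, at 0.76, is the only gene whose interval lies above 0, and Gpr98, at -1.11, has the widest interval.

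Some of these genes share bases with a gene on the opposite strand, and the library kit does not mark strand, so reads in the shared bases cannot be told apart by gene. Gm15241, an antisense gene, shares 137 exon bases with Gpr64, and its counts were 0.701 to 0.769 of those of Gpr64 in all 6 libraries. Gm10644 shares 1107 bases, which is 12.9% of the exon bases of Lphn1, at 0.734 to 0.964 of its counts. Ddx39 shares 895 bases, or 23.8% of those of Cd97, and had 1.62 to 2.33 times its counts. Their log2 fold changes were 0.12, 0.16 and 0.21. The levels of Gpr64, Lphn1 and Cd97 are for that reason uncertain. For Gpr126 itself, the antisense gene Gm46212 shares 441 exon bases (3.61%) and is not a row of the files, so that its reads were not analysed here. Brf2 shares 73 bases with Gpr124 and had 0.171 to 0.367 of its counts. Gm10335 and Rps16-ps2 lie within Gpr126 and Gpr133 and 9330111N05Rik overlaps the locus of Gpr98, all on the opposite strand and with no exon base in common, and Mir1668, within Cd97 on the same strand, was listed at 0 in all libraries.

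Likeness to Gpr126 was described by Pearson's r of log2 CPM over the 6 libraries, among 9964 genes with a mean of at least 10 CPM. The most like were Kctd20 (r = 0.993), Dhx9 (0.989), Nrep (0.989), Taf8 (0.988) and Ccna2 (0.984), and the least like were Sdhaf2 (-0.993), Mvp (-0.980), Edf1 (-0.975), Trim37 (-0.974) and Ddx58 (-0.971). Kctd20 was at 55.7, 47.9 and 41.4 CPM in control replicates 1 to 3 and at 60.0, 54.7 and 45.5 CPM in mutant replicates 1 to 3, and like Gpr126 it was highest in replicate 1 and lowest in replicate 3 under either label. Of the 10 genes, Gpr98 was under that mean and was not compared, and of the others Gpr56 was most like Gpr126 (0.90), ahead of Lphn2 (0.84) and Gpr125 (0.79), and Gpr133 was least like it (-0.30). With 6 libraries that differ in composition, and so many genes compared, these values only describe the order.

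The rest of the family was followed in the same fit. Of 21 further aGPCR genes 20 had a row and 13 passed the filter on low counts, 6 with a log2 fold change above 0 and 7 below, with a median of -0.02. The highest by CPM were Celsr2 (0.37, unadjusted p = 0.113), a cadherin-like receptor of planar cell polarity, Bai2 (0.49, unadjusted p = 0.113) and Gpr116 (0.33, unadjusted p = 0.247), a receptor of endothelium and lung. At an unadjusted p under 0.05 there was 1 of the 13, near the 7.21% of all genes tested. This was Lphn3, the third latrophilin, at 15.7, 15.2 and 34.5 CPM in control replicates 1 to 3 and at 8.54, 13.3 and 15.0 CPM in mutant replicates 1 to 3, with every library labelled mutant below every one labelled control, as in 5.96% of all genes tested. Its log2 fold change was -0.83 (standard error 0.35, edgeR unadjusted p = 0.0363, adjusted p = 0.676), and control replicate 3 lay above the other 5 libraries. Without control replicate 3 no gene of the 13 was at an unadjusted p under 0.05. There were 3 of the 13 without control replicate 2, and 3 of 14 tested without control replicate 1. Gpr97, named after its values were seen, had every library labelled mutant above every one labelled control, as in 5.45% of all genes tested, at a log2 fold change of 1.05 (95% interval -0.26 to 2.36, unadjusted p = 0.105).

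Ligands and binding partners of the 10 receptors held both higher and lower genes. Of 32 such genes 30 were tested, 16 above 0 and 14 below and the median was 0.06 on the log2 scale, and 11 were at an unadjusted p under 0.05, 5 higher and 6 lower, against 7.21% of all genes tested (2.89% higher and 4.32% lower). None passed at an adjusted p of 0.05 with edgeR. The 2 genes without a test were Prnp, listed at 0 in all 6 libraries in an annotation where a read-through gene on its strand overlaps it, and Wnt7a. The study itself examined collagens in these samples, so the collagens of this list are not independent evidence of their direction.

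The 5 higher genes encode matrix proteins, of which type IV collagen and laminin are known to bind ADGRG6 and type III collagen to bind GPR56. Col3a1 was at 2043, 1954 and 1568 CPM in control replicates 1 to 3 and at 2753, 4389 and 4633 CPM in mutant replicates 1 to 3, a log2 fold change of 1.08 (standard error 0.28, edgeR unadjusted p = 0.00335, adjusted p = 0.627). All libraries labelled mutant were above those labelled control. The type IV collagen chains Col4a1 and Col4a2 had log2 fold changes of 0.50 (unadjusted p = 0.0438) and 0.56 (unadjusted p = 0.0288), with Col4a2 at 324, 305 and 221 CPM and at 450, 340 and 465 CPM in the same order. The laminin chains Lamb1 and Lamc1 had 0.67 (unadjusted p = 0.0162) and 0.54 (unadjusted p = 0.0255). The other laminin chain of the list, Lama2, went the opposite way, at -0.65 (edgeR unadjusted p = 0.0103) with no overlap. The laminin chains as a group therefore had no common direction. Groups did not overlap in Col4a2, Lamb1 or Lamc1 and overlapped in Col4a1. Markers of annulus and tendon, among them Col1a1 and Col1a2, had 7 of 8 genes above 0 and 3 at an unadjusted p under 0.05, all higher, and their sum went from 10626 to 25975 CPM under the control label to 22936 to 40965 CPM under the mutant label, and their part was not tested. Nor was that of the endothelial markers given beside Gpr124. Osteoblast markers had 4 of 8 genes above 0 and 4 at an unadjusted p under 0.05, with Bglap and Bglap2 higher and Runx2 and Phex lower. Red cell markers had 7 of 7 genes above 0, with a median of 1.02, and 1, Slc4a1, was higher at that p. The part of either list was not tested. Itga5, an integrin subunit gene and the third of the list by CPM, lay at 0.27 on the log2 scale (unadjusted p = 0.231).

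Among the 6 lower genes were the laminin chain Lama2, the teneurins Tenm1, Tenm2 and Tenm3, which are latrophilin ligands, and Flrt2, another latrophilin ligand. Tenm2 was at 12.1, 26.5 and 48.9 CPM in control replicates 1 to 3 and at 3.76, 9.06 and 10.6 CPM in mutant replicates 1 to 3, a log2 fold change of -1.90 (standard error 0.49, edgeR unadjusted p = 0.00305, adjusted p = 0.627), with no overlap. Tenm1 had -1.99 (unadjusted p = 0.0226), with a low control replicate 1 at 0.856 CPM against 10.1 and 12.8 CPM in control replicates 2 and 3. Tenm3 had -0.48 (unadjusted p = 0.0241), Lama2 -0.65 (unadjusted p = 0.0103) and Flrt2 -0.63 (unadjusted p = 0.0482). In Tenm1, as in Gpr98, the high libraries were control replicates 2 and 3. Neuron markers went both ways, with 3 of 6 tested genes above 0. At an unadjusted p under 0.05, Nefl and Nefm were higher and Rbfox3 was lower. Rbfox3 was at 5.46, 10.3 and 16.3 CPM in control replicates 1 to 3 and at 4.44, 6.28 and 4.89 CPM in mutant replicates 1 to 3. The part of these markers was not tested. Of the partners of Gpr98, named for that role, Whrn had a log2 fold change of 0.65 (95% interval -0.04 to 1.35) and Pdzd7 of -0.09 (-0.81 to 0.64). Without control replicate 3, 2 of the 30 ligand and partner genes were at an unadjusted p under 0.05, and without mutant replicate 1 there were 4, without mutant replicate 3 there were 6 and without control replicate 2 there were 7.

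The length of the locus moved with these differences. Gpr98, Lphn3, Lama2 and the teneurins Tenm1, Tenm2 and Tenm3 each cover more than 500 kb of genome, up to 1229 kb for Tenm2, while Flrt2 covers 93.0 kb and the 5 higher ligand genes 38.2 to 136 kb. Over the 4 lists here 9 tested genes are longer than 500 kb, and 8 of them had a log2 fold change below 0. Tenm4 (740 kb) was at -0.45 and Bai3 (762 kb) was the exception at 0.27, both named after their values were seen. Among all coding genes tested the same was seen, with 204 of 221 genes over 500 kb (92.3%) below 0, a median of -0.79, and 77 (34.8%) lower and 0 higher at an unadjusted p under 0.05. In genes of 250 to 500 kb the median was -0.31, in those of 100 to 250 kb it was -0.09, in those of 20 to 100 kb it was 0.01 and in those up to 20 kb it was 0.03. Of the markers named above as lower, Runx2, Phex and Rbfox3 cover 319, 253 and 422 kb. Among genes of 250 to 500 kb, 79.1% were below 0. Col9a2, Col9a3, Matn3 and Ncmap, also lower, cover 15.9 to 28.7 kb. The part of length in these markers was not tested. Without control replicate 3 the median over 500 kb was -0.34 with 8 genes lower at that p, without mutant replicate 1 it was -0.59 with 23, and without control replicate 1 it was -1.04 with 128. A value of -1.11 for Gpr98 is therefore read against -0.79 for genes of its length class, and the part of length in it was not tested. Counts per gene do not separate reads of spliced RNA from those of unspliced RNA or genomic DNA, so these cannot be told apart in Gpr98, Lama2 or the teneurins, and the olfactory receptor genes that served as background were highest in control replicate 3, at 0.0088 CPM per kb against 0.0022 to 0.0055 in the other libraries. These length classes were chosen after the values of Gpr98 and the teneurins were seen.

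**Figure D4:**
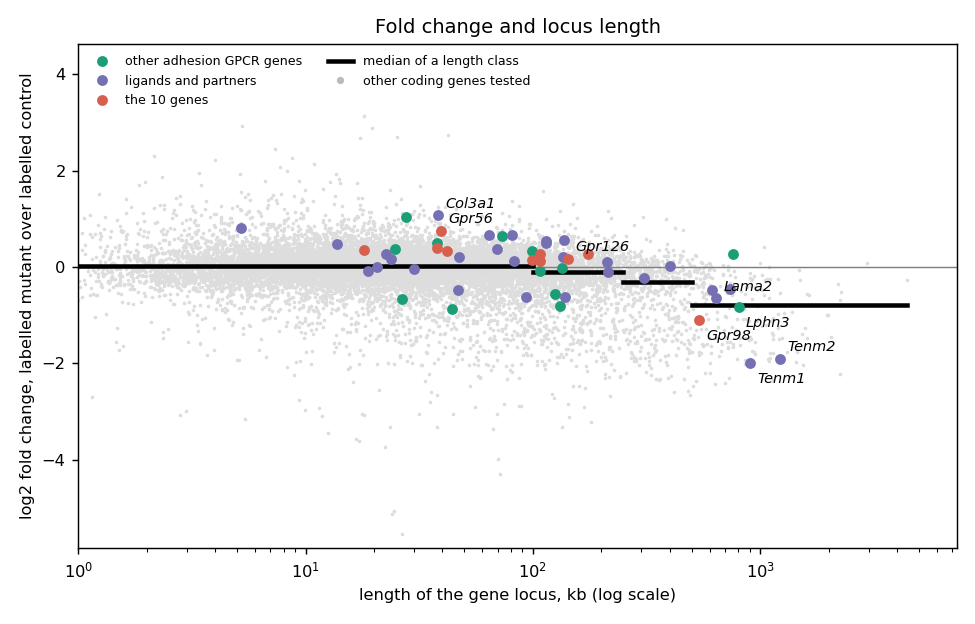
Log2 fold change against the length of the locus in kb on a log axis, for coding genes tested (grey), the 10 genes (red), other aGPCR genes (green) and ligands and partners (purple), with the median of each length class as a bar. The bar lies near 0 up to 100 kb and at -0.79 over 500 kb, where Gpr98, Lphn3 and the teneurins lie.

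Downstream of the receptors, 24 genes of G proteins, their exchange factors, arrestins and cAMP-dependent kinase were tested. Of these, 17 had a log2 fold change above 0, with a median of 0.15, where 48.4% of all genes tested were above 0. With edgeR 0 passed at an unadjusted or adjusted p of 0.05, where 7.21% of all genes tested passed at the unadjusted one. With all 6 libraries DESeq2 also gave 0 at an unadjusted p of 0.05 and limma-voom with quality weights gave 2. With edgeR there was 1 without control replicate 1 and 1 without mutant replicate 1. Gnas, which encodes the Gs subunit that couples ADGRG6 to cAMP, was at 1311, 1526 and 1303 CPM in control replicates 1 to 3 and at 1737, 1187 and 1533 CPM in mutant replicates 1 to 3. The groups overlapped, with the highest and the lowest library both labelled mutant, and the log2 fold change was 0.11 (95% interval -0.41 to 0.63). The other 2 of the highest genes by CPM were Arhgef1, an exchange factor for RhoA, with a log2 fold change of 0.00 (-0.51 to 0.51), and the Gi subunit gene Gnai2 with -0.05 (-0.49 to 0.40).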

How the data were processed

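RNA-seq counts of 6 IVD libraries were analysed, 3 labelled Col2Cre;Adgrg6 f/f mutant and 3 labelled control, grouped by their labels. The authors deposited raw counts per gene symbol for each library. The submitters' processing notes name STAR 2.5.3a, HTSeq and DESeq2 on mm10/GRCm38, whereas the study's methods name Cutadapt and HISAT2 on GRCm38, and the strand setting of the counting is not given in the sources used here. A deposited table of the authors' own comparison, with fold changes and p-values, was not used. Depth was 9061491 to 12017008 counts on genes per library, 39.4 to 43.3% of the reads counted fell on no feature, and reads without molecular identifiers give precision for counting error only. P-values measure the spread between these pools.

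In R 4.3.3, edgeR 4.0.16 was run with TMM normalization, filterByExpr (count minimum 10) and the quasi-likelihood test on 16152 genes, and p-values were adjusted by Benjamini-Hochberg across those genes. The threshold was 0.05. CPM use the TMM-scaled total of the tested genes as library size. The standard error is the size of the log2 fold change over the square root of F, and 95% intervals use the same fit. Exon lengths and positions are those of GENCODE M21 on GRCm38, to which 39483 symbols matched by name and 982 by synonym. The test was checked on simulated counts. Alternatives were RLE and upper-quartile factors, no filter on low counts, DESeq2 1.42.0, limma-voom (limma 3.58.1) with quality weights, a replicate block and each library left out in turn. Genes named were the 10 members, in each further list those at an unadjusted p under 0.05 and the 3 highest by CPM, the 5 genes most and 5 least like Gpr126, and genes that overlap a member. The members, the gene lists and the length classes were chosen with earlier results of these data known, and counts at an unadjusted p under other settings were added after seeing the data. 1 gene of the ligand and partner list is counted but not reported here.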

Additional observations from a re-analysis of the deposited data

How the results depend on the processing

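The 10 aGPCR genes gave 0 calls at an adjusted p of 0.05 with edgeR, DESeq2 and limma-voom and in the 12 alternatives run, and at an unadjusted p they gave 1 with edgeR on all libraries, 2 with no filter, DESeq2 or the block, and 0 (without mutant replicate 1) to 4 (without control replicate 1) with a library left out. Over those alternatives Gpr126 ran from 0.09 to 0.30 (unadjusted p = 0.168 to 0.672) and Gpr56 from 0.56 to 0.97 (unadjusted p = 0.00563 to 0.0795, edgeR, DESeq2 or limma). Gpr98 stayed below 0, from -1.49 to -0.68, with an unadjusted p of 0.0110 with no filter, 0.0399 with DESeq2 and 0.0156 with the block. Gpr133 without control replicate 3 (0.60, unadjusted p = 0.0434) and Lphn1 without control replicate 1 (0.57, unadjusted p = 0.0400) passed at an unadjusted p. Leaving out a library moved Gpr125 from -0.016 (without control replicate 3) to 0.299 and Gpr64 from -0.051 (without mutant replicate 2) to 0.264, so that both reversed, and the cause was not tested. The number of all genes called went from 1 to 245 with no filter (26418 genes tested), 58 with DESeq2 and 0 with limma-voom, and leaving out a library gave 0 to 31, the 31 without control replicate 1. At an unadjusted p it went from 1164 to 2276 with no filter, 618 without control replicate 3 and 2427 without control replicate 1. Ligand and partner genes called went from 0 to 3 with no filter and 2 with DESeq2, and leaving out a library gave 0 to 1. With lengths of coding transcripts, 3 of the 10 genes kept their place in the order of levels.

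Replicate numbers are shared between the labels. The deviations of same-numbered libraries correlated at 0.16, -0.13 and 0.10, against -0.26 to 0.18 for libraries numbered differently. Pairing by number was not evident, and so few values cannot exclude it. The replicate block gave 0 genes called, 1002 at an unadjusted p, 0.17 for Gpr126 (unadjusted p = 0.384) and 0.76 for Gpr56 (unadjusted p = 0.0106). Gpr98 had the fewest counts, 18 to 184 a library.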
